A study of Caenorhabditis elegans with 12 samples.

Results

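The genes described here are 35 genes of RNA interference (RNAi) and small RNA pathways of *C. elegans*, chosen by name: Dicer, Argonautes, RNA-dependent RNA polymerases, and mutator and systemic RNAi genes. All 35 were found by name among the 46739 features of the deposited table. They were read in whole day 1 adult worms of strain PMD216, whose poly(A) RNA was sequenced in 12 libraries. The groups were *cat-1* RNAi, *cat-2* RNAi and the L4440 empty vector (EV), with 4 biological replicates in each, all fed on HT115 bacteria. CAT-1 loads monoamines into synaptic vesicles and CAT-2 is the tyrosine hydroxylase of dopamine synthesis, so every worm met either double-stranded RNA (dsRNA) of a dopamine gene or the bare vector.

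The animals of all 3 groups, EV included, carried lesions in several of these genes. The labels list *rde-1*(ne219) on chromosome V, *rrf-3*(b26) on chromosome II and transgenes that place GFP, *sid-1* and *rde-1* under the *dat-1* promoter. The study's methods add *fem-1*(hc17) and *eri-1*(mg366) on chromosome IV and *lin-15B*(n744) on chromosome X, and state that temperature-sensitive sterile strains were raised at their restrictive temperature. The *dat-1* promoter is active in dopaminergic neurons only, so the strain restores the primary RNAi Argonaute in those few cells while RNA came from the whole animal. A worm with fewer cells of a type and a worm with less RNA per cell cannot be told apart in such libraries, and reads of the endogenous *rde-1* or *sid-1* and of the transgene cannot be told apart either.

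In worms, dsRNA from food is taken up and passed between cells by SID proteins, and is then cut by Dicer into primary small interfering RNAs that load the Argonaute RDE-1. RNA-dependent RNA polymerases, the helicase DRH-3 and the Mutator proteins copy the target into abundant secondary small RNAs, which worm-specific Argonautes (WAGOs) use to silence it. Endogenous branches share much of this machinery: the ERI branch makes primary small RNAs with RRF-3 and ERGO-1, PRG-1 binds piRNAs, CSR-1 marks germline-expressed genes, and ALG-1 and ALG-2 carry microRNAs. Many of these proteins work in germ granules, and the germline is a main site of their expression.

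Values are RPKM, the reads of a gene scaled to its length and to the mapped reads of the library, so levels of different genes can be set side by side. The libraries held 18765779 to 21493743 mapped reads and 16490 to 17100 detected features. Markers of the germline and of oocytes were high in all 12 libraries. The 10 germline markers summed to 1908 to 2074 RPKM in *cat-1* RNAi, 1915 to 2187 RPKM in *cat-2* RNAi and 1982 to 2081 RPKM in EV, and the 7 oocyte markers to 4200 to 4496 RPKM in *cat-1* RNAi, 4367 to 4433 RPKM in *cat-2* RNAi and 4408 to 4565 RPKM in EV. Of the 7 dopaminergic neuron markers, *dat-1* was the lowest at 0.0718 RPKM over 12 libraries (36 reads in all) and *bas-1* the highest at 8.04 RPKM. Reads of the RNAi targets were not fewer in their own RNAi groups. *cat-1* had 107 reads over the 4 libraries labelled *cat-1* RNAi (0.693 ± 0.560 RPKM) and 15 in EV (0.103 ± 0.0423 RPKM, SD, n = 4 each), and *cat-2* had 156 reads over the 4 libraries labelled *cat-2* RNAi (1.16 ± 0.529 RPKM) and 19 in EV (0.141 ± 0.0449 RPKM). Both differences had p = 0.0286 in two-sided exact permutation tests, the smallest 4 against 4 libraries allow, and an adjusted p of 0.0429 over the 6 comparisons of the targets. Without *cat-1* RNAi replicate 3, which alone held 61 of the 107 reads, the *cat-1* difference of 0.590 RPKM was 0.316 RPKM. Reads of the worm's own transcript and of ingested trigger RNA cannot be told apart in these values, and the names *cat-1* RNAi and *cat-2* RNAi stand below for libraries labelled so.

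**Figure D1:**
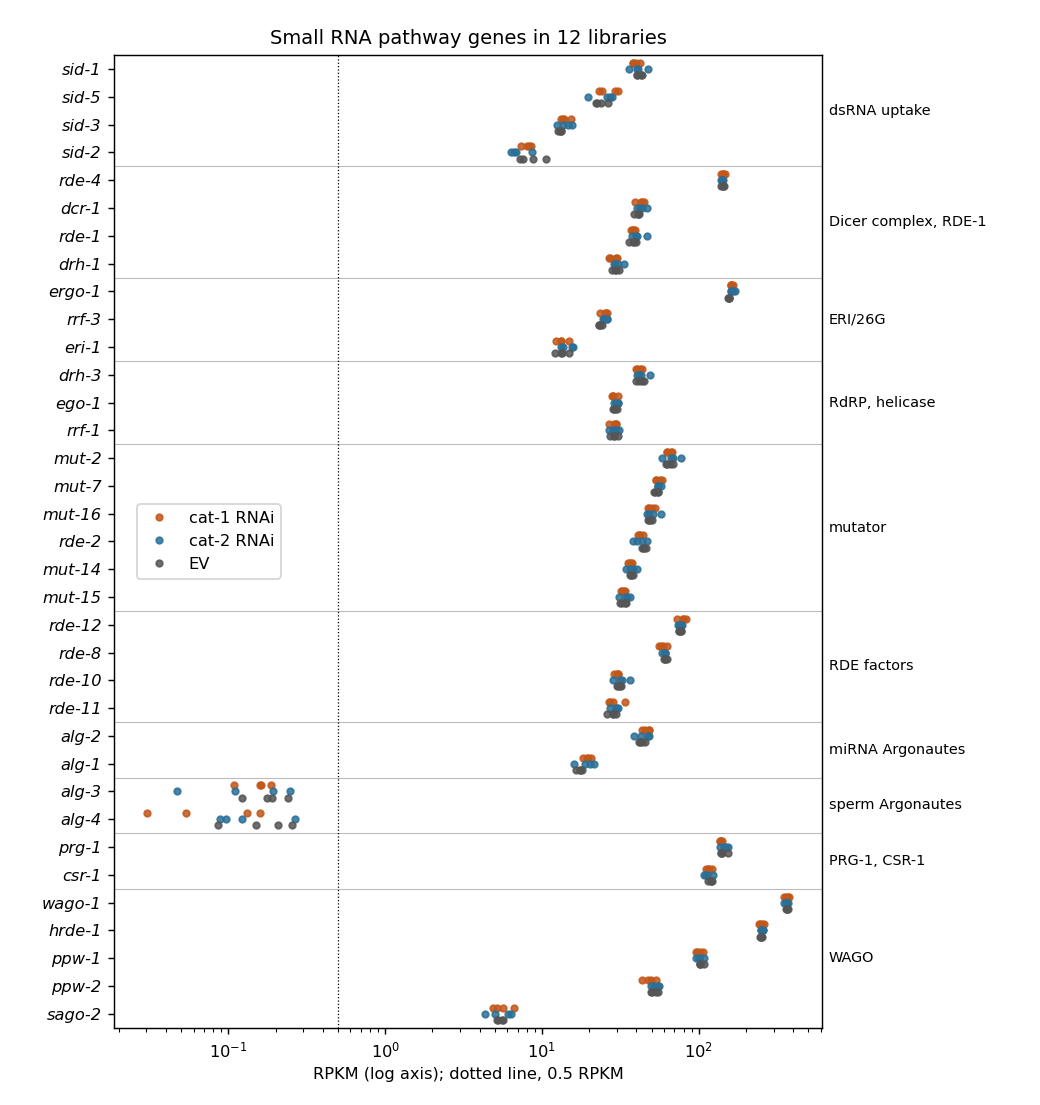
RPKM of the 35 genes on a log axis, 1 point for each of the 12 libraries, grouped by role and ordered by level within a role, with the groups in colour and the filter of 0.5 RPKM as a dotted line. 33 genes lie at 4.36 RPKM or more in every library, and only *alg-3* and *alg-4* lie under the filter.

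The genes spanned a wide range of levels, and 33 of the 35 were expressed well above the filter of 0.5 RPKM in at least 4 libraries. 7 averaged at least 100 RPKM over the 12 libraries, 24 lay between 10 and 100 RPKM and 4 below 10 RPKM. Among the 33, the highest mean was 66.4 times the lowest, and the median gene stood at the 81.1st percentile of all features with a value above 0. In order, the 7 highest were *wago-1* at 363.6 RPKM, *hrde-1* at 251 RPKM, *ergo-1* at 160.3 RPKM, *prg-1* at 142.5 RPKM, *rde-4* at 141.8 RPKM, *csr-1* at 116 RPKM and *ppw-1* at 101.8 RPKM. 6 of these 7 are Argonautes, and *rde-4* is the dsRNA-binding partner of Dicer. Only 8 of the 34 neighbours in the order had ranges over the 12 libraries that did not overlap, so most of the middle of the order, from *rde-12* at 76.7 RPKM down to *rrf-3* at 24.6 RPKM, is not resolved gene by gene. *prg-1* and *rde-4*, for example, differed by 0.114 of the larger SD. 8 members overlap a gene on the other strand, whose reads could not be told apart if strand was not used. *rde-2*, *csr-1*, *alg-1* and *alg-2* also overlap the span of a gene on their own strand, where strand would not help.

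Of the 35 members, 4 act in uptake and transport of dsRNA, and these were of moderate to low level. *sid-1*, which encodes the transmembrane channel for dsRNA (chromosome V, 5119970 to 5126916, build ce11), was the highest of them, with 42.0, 37.9, 39.6 and 38.1 RPKM in *cat-1* RNAi, 40.1, 47.3, 36.2 and 41.1 RPKM in *cat-2* RNAi and 40.6, 42.6, 43.3 and 40.1 RPKM in EV. The groups overlapped, and *cat-2* RNAi held both the highest and the lowest library. Its log2 fold change was −0.08 in *cat-1* RNAi against EV (95% interval −0.23 to 0.07) and −0.02 in *cat-2* RNAi against EV (−0.17 to 0.13). *sid-5*, an endosomal protein that helps silencing pass between cells, averaged 25.2 RPKM, and *sid-3*, a tyrosine kinase needed for import, 13.7 RPKM. *sid-2*, the receptor through which the intestine takes up dsRNA from the gut, was the lowest at 7.90 RPKM. The 6 intestinal markers summed to 656.9 to 860.6 RPKM in a library, and their means ran from 2.85 RPKM (*elt-2*) to 542.3 RPKM (*asp-1*). How the level of *sid-2* relates to these markers was not tested.

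*sid-2* also had the largest negative fold change of the 33 genes against EV, and its values are given here although it was picked after they were seen. It read 8.48, 7.30, 8.23 and 7.97 RPKM in *cat-1* RNAi, 6.60, 8.66, 6.85 and 6.37 RPKM in *cat-2* RNAi and 8.80, 10.7, 7.24 and 7.61 RPKM in EV. The difference leans on 1 high EV library (replicate 2) and on 3 of the 4 *cat-2* RNAi libraries, and the groups overlap. The log2 fold change in *cat-2* RNAi against EV was −0.25 (SE 0.125, 95% interval −0.51 to 0.02, limma adjusted p = 0.588), and −0.14 without EV replicate 2 (0.775). With 129 to 212 reads in a library, this gene had 1 of the widest spreads between replicates (13.4%). It overlaps *dyf-2* on the other strand, and whether the counting used strand is not given in the sources used here. EV replicate 2 also stood high in body muscle markers, at 264.7 RPKM against 147 to 159.5 RPKM in the other EV libraries, whose part in the *sid-2* value was not tested.

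The next group cuts dsRNA and carries the primary small RNA. *rde-4* (chromosome III, 10217302 to 10218646) read 146.2, 142.9, 141.9 and 138.3 RPKM in *cat-1* RNAi, 142.4, 140.9, 140.7 and 138.0 RPKM in *cat-2* RNAi and 143.3, 138.7, 142.9 and 145.1 RPKM in EV. It was the steadiest of all 33 genes, with a residual spread between replicates of 1.89%. Its log2 fold change against EV was −0.0019 in *cat-1* RNAi and −0.02 in *cat-2* RNAi, with 95% intervals that stayed within −0.09 and 0.07. *dcr-1*, which encodes Dicer, averaged 42.4 ± 2.29 RPKM in *cat-1* RNAi, 43.1 ± 2.78 RPKM in *cat-2* RNAi and 40.4 ± 1.35 RPKM in EV (SD, n = 4 each). 6 of the 8 RNAi libraries lay above all EV libraries for *dcr-1*, but its log2 fold changes against EV of 0.07 in *cat-1* RNAi and 0.09 in *cat-2* RNAi had 95% intervals that included 0 (limma adjusted p = 0.898 and 0.634). *drh-1*, a RIG-I-like helicase of antiviral RNAi, ranged from 26.8 to 33.2 RPKM with overlapping groups.

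*rde-1* (chromosome V, 9987916 to 9991642), the Argonaute whose mutation and rescue define the strain, was transcribed at a moderate level throughout. It read 39.2, 38.3, 36.9 and 38.1 RPKM in *cat-1* RNAi, 37.4, 47.1, 40.6 and 39.6 RPKM in *cat-2* RNAi and 36.0, 39.6, 38.4 and 38.02 RPKM in EV. A single library, *cat-2* RNAi replicate 2, lay above the rest, and the groups otherwise overlapped. The log2 fold change was 0.0044 in *cat-1* RNAi against EV (95% interval −0.13 to 0.14) and 0.11 in *cat-2* RNAi against EV (−0.02 to 0.24, limma adjusted p = 0.611). Without *cat-2* RNAi replicate 2 the value for *cat-2* RNAi was 0.04 (limma adjusted p = 0.841), and without replicates 2 and 3 of that group 0.02 (0.945).

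Of the ERI genes, the Argonaute *ergo-1* (chromosome V, 1008803 to 1018352), which carries the primary small RNAs of this branch in oocytes and embryos, was the third most abundant member and the one whose groups separated most cleanly. It read 159.7, 161.3, 161.0 and 165.4 RPKM in *cat-1* RNAi, 159.5, 169.2, 159.6 and 165.6 RPKM in *cat-2* RNAi and 156.6, 153.6, 155.5 and 156.1 RPKM in EV. All 8 RNAi libraries lay above all 4 EV libraries, by a small margin. The means were 161.8 ± 2.47 RPKM in *cat-1* RNAi, 163.5 ± 4.76 RPKM in *cat-2* RNAi and 155.4 ± 1.30 RPKM in EV (SD, n = 4 each). The log2 fold change of both RNAi groups against EV was 0.07 (SE 0.0282, 95% interval 0.0045 to 0.13), and limma's adjusted p over all genes was 0.612. *ergo-1* shares part of its span with *pei-2* on the other strand.

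*rrf-3* (chromosome II, 8162465 to 8168651) encodes the polymerase that starts the ERI branch and carries the b26 allele in every library. It read 25.6, 25.9, 23.5 and 25.3 RPKM in *cat-1* RNAi, 24.3, 26.1, 24.9 and 25.8 RPKM in *cat-2* RNAi and 23.2, 24.0, 23.2 and 23.3 RPKM in EV. 7 of the 8 RNAi libraries lay above all EV libraries, with *cat-1* RNAi replicate 3 as the exception. The log2 fold change of both RNAi groups against EV was 0.10 (SE 0.0431, 95% interval 0.0069 to 0.19), with a limma adjusted p of 0.612. *rrf-3* overlaps the gene T05C12.11 on the other strand. *eri-1*, whose exonuclease limits RNAi and which carries mg366, was the lowest ERI gene. Its values were 13.1, 14.8, 12.3 and 13.3 RPKM in *cat-1* RNAi, 13.5, 15.5, 13.3 and 15.9 RPKM in *cat-2* RNAi and 14.8, 12.1, 13.4 and 13.3 RPKM in EV, and the groups overlapped. The log2 fold changes against EV were −0.0021 (95% interval −0.19 to 0.18) for *cat-1* RNAi and 0.11 (−0.07 to 0.30) for *cat-2* RNAi.

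The amplification step held 3 genes of like level. The germline polymerase gene *ego-1* averaged 29.3 RPKM and the somatic *rrf-1* 28.8 RPKM, a gap of 0.331 of the larger SD. The 2 genes lie 563 bases apart on the same strand of chromosome I. *drh-3*, a Dicer-related helicase that works with both, was the highest, at 40.5, 39.6, 42.1 and 43.5 RPKM in *cat-1* RNAi, 40.6, 49.0, 42.7 and 41.4 RPKM in *cat-2* RNAi and 41.8, 39.8, 43.5 and 44.7 RPKM in EV. *cat-2* RNAi replicate 2 was again the high library, and no group stood apart. The 6 log2 fold changes of these genes against EV lay between −0.03 (*drh-3* in *cat-1* RNAi) and 0.04 (*ego-1* in *cat-2* RNAi).

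The 6 mutator genes lay between 33.3 and 65.6 RPKM. The highest, *mut-2*, encodes the nucleotidyltransferase that tails target RNAs, and read 62.3, 67.2, 66.4 and 62.9 RPKM in *cat-1* RNAi, 68.1, 77.0, 58.4 and 66.8 RPKM in *cat-2* RNAi and 65.4, 62.9, 68.1 and 62.2 RPKM in EV. Both extremes were *cat-2* RNAi libraries (replicates 2 and 3), with the other groups between them. *mut-16*, the scaffold of Mutator foci, averaged 49.7 RPKM, the exonuclease gene *mut-7* 54.8 RPKM, and *rde-2*, whose product binds MUT-7, 43.0 RPKM. The helicase gene *mut-14* and *mut-15*, a further Mutator component, averaged 36.99 and 33.3 RPKM. *rde-2* had the largest negative fold change of the 6, −0.08 in *cat-1* RNAi and −0.09 in *cat-2* RNAi on the log2 scale against EV (limma adjusted p = 0.890 and 0.661).

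Between target recognition and amplification act 4 further RDE factors, which lay between 28.8 and 76.7 RPKM. *rde-12*, a helicase that joins the target with the amplifying enzymes, read 73.0, 82.9, 79.2 and 79.4 RPKM in *cat-1* RNAi, 74.4, 76.6, 73.2 and 77.7 RPKM in *cat-2* RNAi and 77.2, 74.7, 76.9 and 74.7 RPKM in EV. *cat-1* RNAi held its highest and its lowest library. The endonuclease gene *rde-8* averaged 60.1 RPKM, while *rde-10* and *rde-11*, whose products form a complex, averaged 30.99 and 28.8 RPKM.

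The microRNA Argonautes differed in level, *alg-2* lying at 44.5 RPKM and *alg-1* at 18.7 RPKM. *alg-2* read 48.0, 47.9, 43.5 and 45.3 RPKM in *cat-1* RNAi, 42.8, 48.4, 38.7 and 47.1 RPKM in *cat-2* RNAi and 43.2, 41.5, 45.7 and 42.4 RPKM in EV. *alg-1* (chromosome X, 13949110 to 13956261) read 20.7, 19.4, 18.2 and 19.7 RPKM in *cat-1* RNAi, 18.8, 21.6, 16.1 and 20.2 RPKM in *cat-2* RNAi and 17.9, 16.5, 17.4 and 17.4 RPKM in EV. For *alg-1* all 4 *cat-1* RNAi libraries and 3 of the 4 *cat-2* RNAi libraries lay above every EV library, and *cat-2* RNAi replicate 3 lay below them all. Its log2 fold change was 0.17 in *cat-1* RNAi against EV (SE 0.0811, limma adjusted p = 0.819), 0.14 in *cat-2* RNAi against EV (limma adjusted p = 0.620) and 0.15 in both RNAi groups against EV (SE 0.0702, 95% interval 0.0010 to 0.30, limma adjusted p = 0.617). Without *cat-2* RNAi replicate 2 the value in *cat-2* RNAi against EV was 0.08 (limma adjusted p = 0.821). Without replicate 3 the adjusted p in *cat-2* RNAi against EV was 0.302, the lowest of any member in any of the fits tried. The 2 genes are near copies that can share reads, and the length over which the authors' reads were counted was 0.742 of the annotated exon length for *alg-1* and 0.784 for *alg-2*, so their levels carry that scale.

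The spermatogenesis Argonautes *alg-3* and *alg-4*, which bind primary small RNAs in developing sperm, were the only members under the filter. *alg-3* read 0.161, 0.186, 0.158 and 0.109 RPKM in *cat-1* RNAi, 0.111, 0.193, 0.247 and 0.0473 RPKM in *cat-2* RNAi and 0.239, 0.177, 0.190 and 0.123 RPKM in EV. *alg-4* read 0.0300, 0.130, 0.0536 and 0.160 RPKM in *cat-1* RNAi, 0.266, 0.0970, 0.123 and 0.0882 RPKM in *cat-2* RNAi and 0.149, 0.255, 0.207 and 0.0860 RPKM in EV. Both were detected in every library, on 2 to 18 reads, and their groups overlapped. Summed over 4 libraries, *alg-3* had 40 reads in *cat-1* RNAi, 38 in *cat-2* RNAi and 46 in EV, and *alg-4* had 26 in *cat-1* RNAi, 39 in *cat-2* RNAi and 47 in EV. The 6 two-sided exact permutation tests gave adjusted p of 0.754 to 0.971, so no difference was detectable at this depth. The 8 sperm markers were low as well, at 3.63 to 4.27 RPKM summed in *cat-1* RNAi, 2.27 to 5.82 RPKM in *cat-2* RNAi and 3.12 to 4.96 RPKM in EV. Among single markers *msp-10* was the highest at 1.09 RPKM and *spe-9* the lowest at 0.122 RPKM, and most averaged above *alg-3* and *alg-4*. How these low levels relate to those of *alg-3* and *alg-4* was not tested.

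*prg-1*, the Piwi Argonaute that carries piRNAs, and *csr-1* were both above 100 RPKM. *prg-1* read 136.9, 138.8, 141.5 and 136.3 RPKM in *cat-1* RNAi, 149.7, 136.7, 154.2 and 145.1 RPKM in *cat-2* RNAi and 152.6, 139.0, 138.0 and 141.5 RPKM in EV. Here *cat-2* RNAi replicate 2 was among the low libraries, and 3 of the 4 *cat-2* RNAi libraries lay above all *cat-1* RNAi libraries. The log2 fold change in *cat-1* RNAi against *cat-2* RNAi was −0.08 (95% interval −0.18 to 0.01, limma adjusted p = 0.825). *prg-1* overlaps D2030.12 on the other strand. How any reads matching both *prg-1* and its relative *prg-2* were counted is not given in the sources used here. *csr-1* averaged 116 ± 3.89 RPKM in *cat-1* RNAi, 113.8 ± 6.98 RPKM in *cat-2* RNAi and 118.4 ± 3.07 RPKM in EV (SD, n = 4 each), with overlapping groups. The piRNA loci themselves were without reads: of 15365 features of the 21ur type, 0 had a value above 0 in these poly(A) libraries.

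The WAGO genes ran from the top of the order to its lower end. *wago-1*, a germ granule Argonaute and the highest of all members (chromosome I, 7235384 to 7238792), read 349.5, 360.3, 379 and 372.5 RPKM in *cat-1* RNAi, 364.9, 348.5, 368.7 and 358.4 RPKM in *cat-2* RNAi and 365.9, 361.4, 364.4 and 369.2 RPKM in EV. EV libraries lay inside the range of the *cat-1* RNAi libraries, and the log2 fold changes against EV were −0.0003 in *cat-1* RNAi (95% interval −0.08 to 0.08) and −0.02 in *cat-2* RNAi (−0.10 to 0.06). *hrde-1*, the nuclear Argonaute of heritable silencing, ranged from 242.2 to 259.6 RPKM over the 12 libraries. *ppw-1* averaged 101.8 RPKM and its near copy *sago-2* 5.47 RPKM, the lowest of the 33 genes, and reads of the 2 may be shared.

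*ppw-2*, a germline WAGO (chromosome I, 5158511 to 5162232), was the member with the smallest p between the RNAi groups. It read 49.4, 43.5, 53.4 and 47.5 RPKM in *cat-1* RNAi, 55.0, 52.0, 56.1 and 49.8 RPKM in *cat-2* RNAi and 54.9, 53.4, 49.6 and 49.98 RPKM in EV. 3 of the 4 *cat-1* RNAi libraries lay below every *cat-2* RNAi library, and replicate 3 lay among them. The log2 fold change in *cat-1* RNAi against *cat-2* RNAi was −0.14 (SE 0.0622, 95% interval −0.27 to −0.0027), with a limma adjusted p of 0.775, and −0.09 without *cat-1* RNAi replicate 2 (0.984). Against EV it was −0.10 in *cat-1* RNAi (limma adjusted p = 0.868, and −0.05 without that library) and 0.03 in *cat-2* RNAi (0.890).

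**Figure D2:**
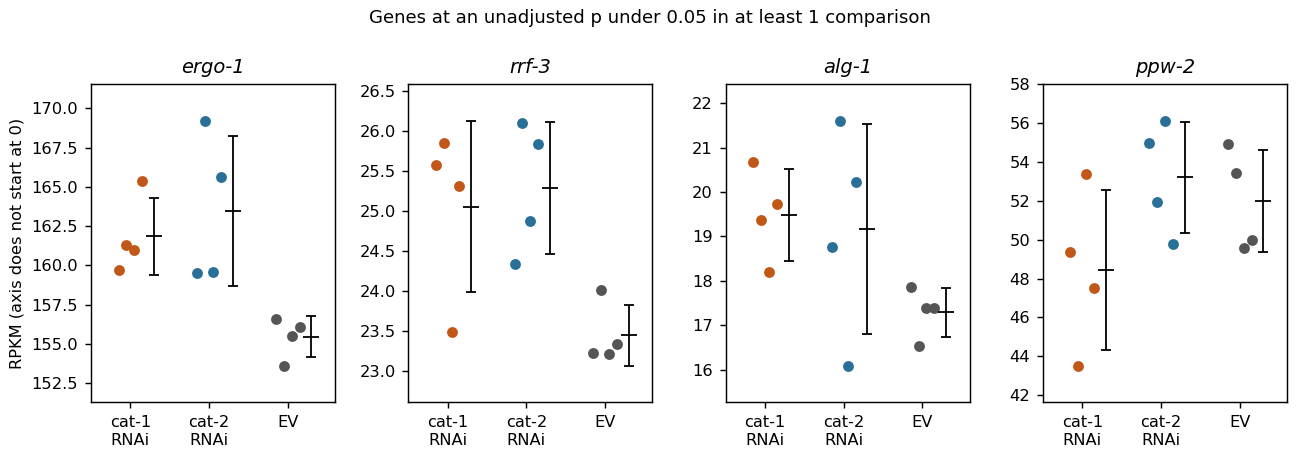
RPKM of *ergo-1*, *rrf-3*, *alg-1* and *ppw-2* in each library of *cat-1* RNAi, *cat-2* RNAi and EV (points), with the mean ± SD of 4 libraries (black), on axes that do not start at 0. All 8 RNAi libraries lie above the EV libraries for *ergo-1* and 7 of 8 for *rrf-3*, with *ergo-1* means of 161.8 RPKM in *cat-1* RNAi, 163.5 RPKM in *cat-2* RNAi and 155.4 RPKM in EV.

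The first comparison asked whether feeding *cat-1* dsRNA moved any of these genes relative to EV. In limma's test across 13161 genes, 0 of 33 members passed an adjusted p of 0.05, where 0% of all genes did. At an unadjusted p under 0.05 the count was also 0 members, against 5.94% of all genes, and limma's voom on recovered reads gave 2 members (5.52% of all genes) at that level and 0 after adjustment. The groups did not overlap for 2 members (6.06%), *ergo-1* and *alg-1*, both higher in *cat-1* RNAi, where 3.57% of all genes did not overlap. 16 members had a positive and 17 a negative log2 fold change, with a median of −0.0003, beside 0.0039 over all genes. The values ran from −0.10 (*ppw-2*) to 0.17 (*sid-5*).

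For *cat-2* RNAi against EV, 0 of 33 members passed the adjusted threshold, where 4 of all genes did (0.0304%). *ergo-1* alone was under an unadjusted p of 0.05 (log2 fold change 0.07, 95% interval 0.0021 to 0.14, limma adjusted p = 0.556), where 8.84% of all genes were, and voom gave 2 members (8.84% of all genes) at that level and 0 after adjustment. The groups did not overlap for *rrf-3* and *ergo-1*, both higher in *cat-2* RNAi (6.06% of members, 5.46% of all genes). 24 members had a positive log2 fold change and 9 a negative one, with a median of 0.04 against 0.01 for all genes. The size of that lean varied with the *cat-2* RNAi library left out. The median of the members was 0.0058 without replicate 2 and 0.0509 without replicate 4. It was 0.019 without both *cat-2* RNAi libraries described below as lowest in quality weight. The split of signs and the median of all genes are not given here for these fits. Since both comparisons share the 4 EV libraries, the like direction of *ergo-1*, *rrf-3* and *alg-1* in them is not independent.

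Taking both RNAi groups against EV, 0 of 33 members passed the adjusted threshold (0% of all genes). 3 members were under an unadjusted p of 0.05, *rrf-3*, *ergo-1* and *alg-1*, all higher in the RNAi libraries, a share of 9.09% where 8.04% of all genes were so. voom also gave 3 (7.68% of all genes) at that level and 0 after adjustment. *ergo-1* was the 1 member whose groups did not overlap (3.03%, against 0.669% of all genes). The count at the unadjusted level ranged from 0 to 4 over the alternatives. The share of all genes under that level is not given here for most of those fits, so the range cannot be set against it.

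Between the RNAi groups themselves, *cat-1* RNAi against *cat-2* RNAi, 0 of 33 members passed the adjusted threshold (0% of all genes) and *ppw-2* alone was under an unadjusted p of 0.05, where 6.44% of all genes were. voom gave 1 member (6.3% of all genes) at that level and 0 after adjustment. The groups overlapped for each of the 33 members, where 3.18% of all genes had groups that did not.

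**Figure D3:**
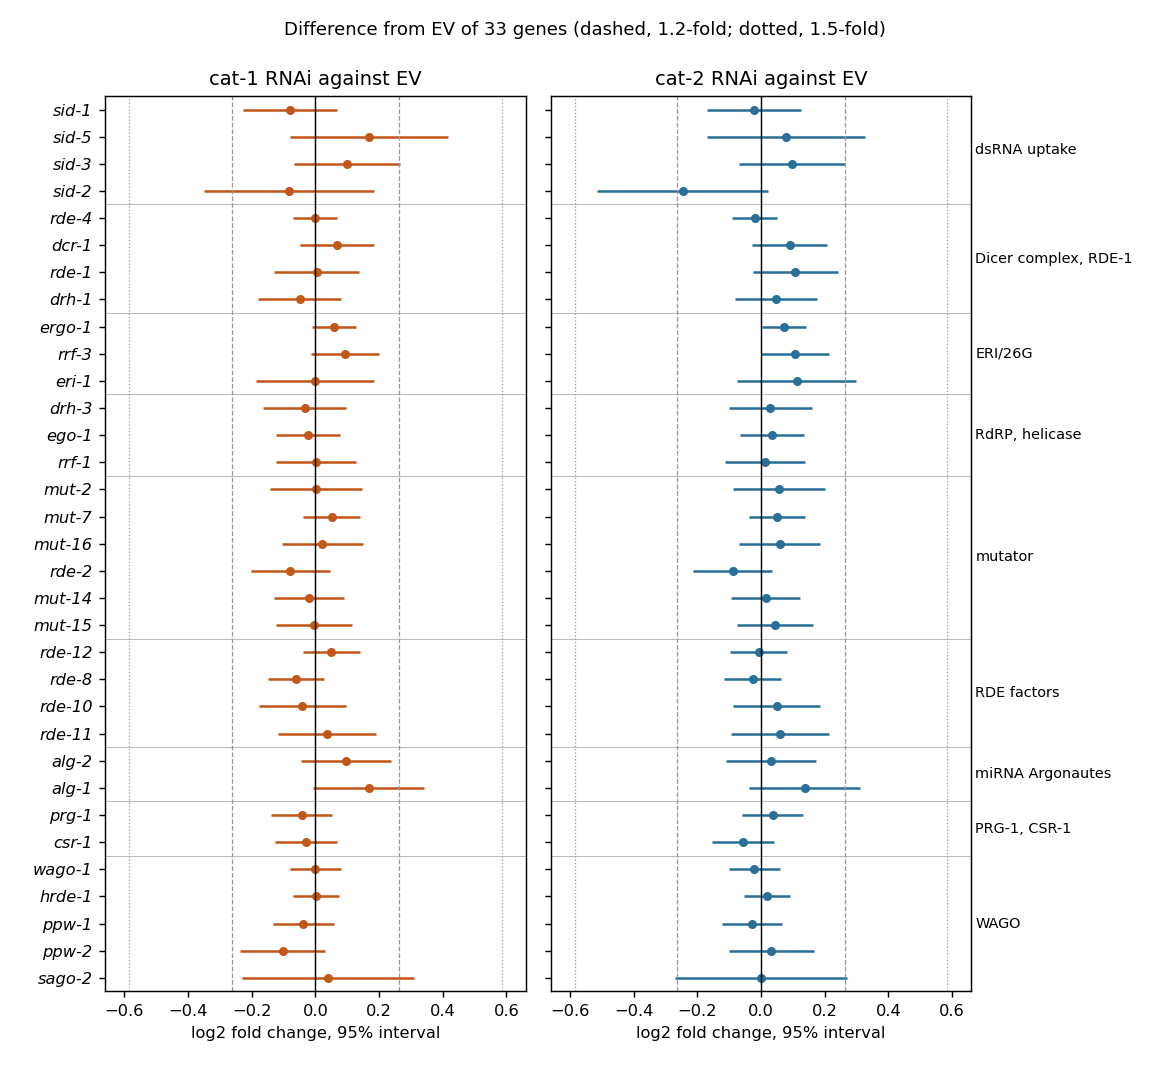
Log2 fold change (points) and 95% interval (lines) of the 33 tested genes in *cat-1* RNAi against EV (left) and *cat-2* RNAi against EV (right), by role, with 1.2-fold as dashed and 1.5-fold as dotted lines. Every interval stays within 1.5-fold, and those of 5 genes on the left and 6 on the right, led by *sid-2* and *sid-5*, reach past 1.2-fold.

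The 95% intervals describe the change of each transcript in the whole worm, 1 gene and 1 comparison at a time. They were not widened for the number of genes and comparisons. In each of the 4 comparisons the 95% intervals of all 33 members lay within a 1.5-fold change either way, where 75.4% to 82.4% of all genes had intervals that narrow. Within 1.2-fold lay 28 members in *cat-1* RNAi against EV, 27 in *cat-2* RNAi against EV, 30 in both against EV and 28 in *cat-1* RNAi against *cat-2* RNAi, against 39.4% to 45.8% of all genes. *sid-2* and *sid-5* reached past 1.2-fold in each comparison, and *sid-3*, *alg-1*, *sago-2*, *eri-1* and *ppw-2* in some. The median residual spread of the members was 0.0807 on the log2 scale, against 0.153 for all genes and 0.0973 for the 7715 genes in the same range of mean level. The shares within 1.2-fold and 1.5-fold were not computed for those 7715 genes alone. These intervals are for the whole animal, and a change limited to dopaminergic neurons was not measured apart.

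**Figure D4:**
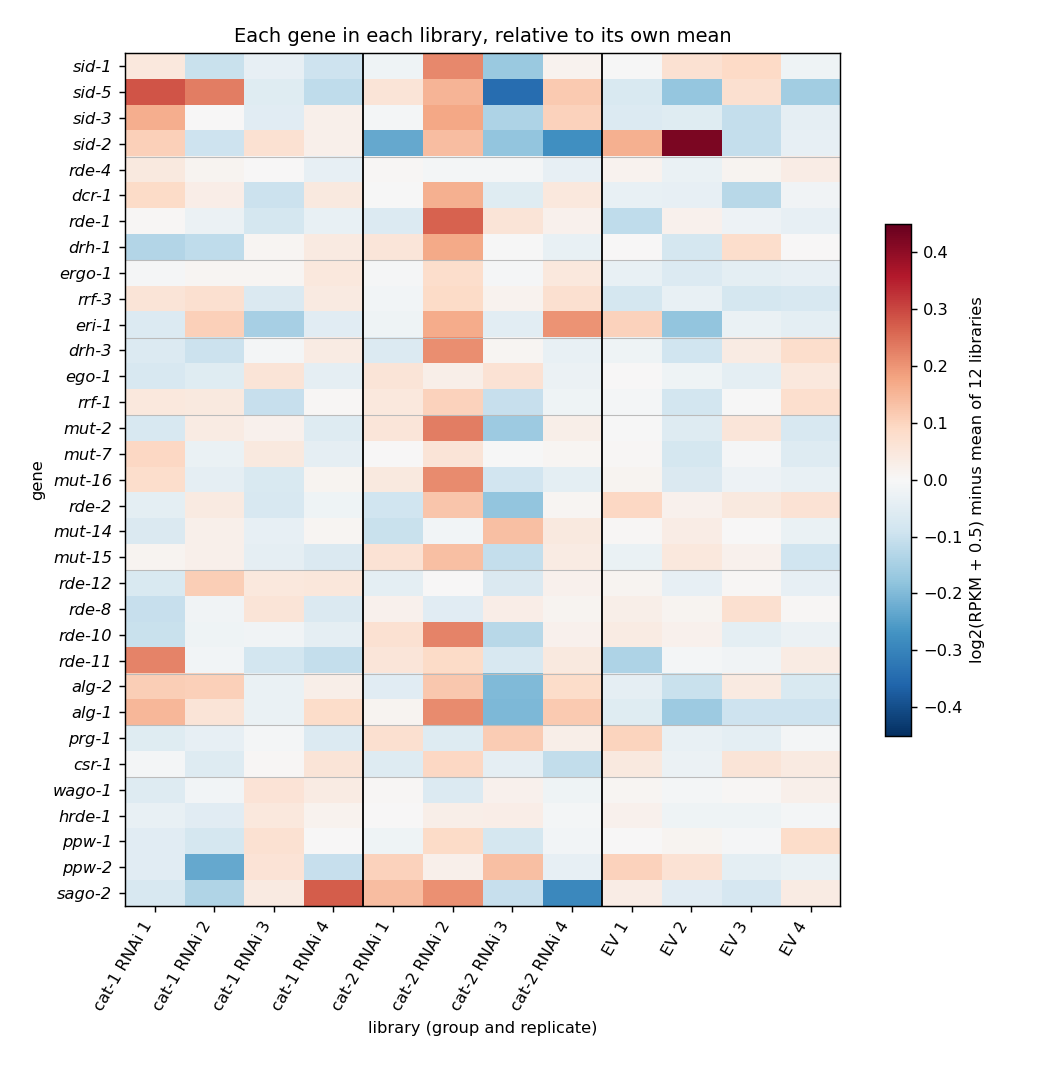
Log2(RPKM + 0.5) of each of the 33 genes in each library, relative to the gene's mean over the 12 libraries (red above, blue below), by role, with black lines between *cat-1* RNAi, *cat-2* RNAi and EV. The column of *cat-2* RNAi replicate 2 is red for 28 of 33 genes, and that of replicate 3 of the same group blue for most.

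Single libraries also moved many members together. *cat-2* RNAi replicate 2 was the highest of the 12 libraries for 18 of 33 members (54.5%), where it was the highest for 21.5% of all genes, and it lay above the mean for 28 members, with a median deviation of 0.12 on the log2 scale against 0.04 for all genes. *cat-2* RNAi replicate 3 was the lowest library for 10 members (30.3%, against 15.5% of all genes). Relative to the other 3 libraries of its group, replicate 2 was higher by 28.9% for *sid-2*, 22.2% for *sago-2*, 20.7% for *sid-1* and 19.9% for *rde-1*. The same log2 difference was −0.13 for *prg-1* and −0.06 for *wago-1*, so the shift was not common to all members. Replicate 2 also had the highest summed germline markers (2187 RPKM) and neuron markers (320.9 RPKM) of the 12 libraries. Its summed hypodermis markers were the lowest (95.1 RPKM), and its other marker sums lay within the range of the other libraries. The part of these differences in the members' values was not tested. These 2 libraries had the lowest quality weights in limma (0.331 and 0.629). Weights were 0.780 (replicate 3) to 1.30 (replicate 2) in *cat-1* RNAi and 1.02 to 1.54 in EV. The part of library quality in the members' values was not tested. Leaving both out, 0 members passed the adjusted threshold in any comparison, and 1, 3, 4 and 0 members were under an unadjusted p of 0.05 in *cat-1* RNAi against EV, *cat-2* RNAi against EV, both against EV and *cat-1* RNAi against *cat-2* RNAi. The shares of all genes under it in these fits were 8.02%, 8.9%, 10.2% and 6.17% in the same order.

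A further list of 50 small RNA pathway genes outside the 35, such as nuclear RNAi, microRNA processing and exonuclease genes, had 47 found and 45 tested. 0 passed the adjusted threshold in any comparison. At an unadjusted p under 0.05 there were 4 higher and 0 lower in *cat-1* RNAi against EV, 6 higher and 1 lower in *cat-2* RNAi against EV, 6 higher and 1 lower in both against EV, and 1 higher and 1 lower in *cat-1* RNAi against *cat-2* RNAi. These were 8.89%, 15.6%, 15.6% and 4.44% of the 45, where 5.94%, 8.84%, 8.04% and 6.44% of all genes were under that level. *xrn-1*, the cytoplasmic exonuclease that degrades decapped RNA, read 36.1, 39.0, 31.5 and 39.3 RPKM in *cat-1* RNAi, 35.4, 33.2, 33.1 and 36.4 RPKM in *cat-2* RNAi and 31.7, 30.7, 29.8 and 29.9 RPKM in EV. All but 1 of the RNAi libraries (*cat-1* RNAi replicate 3) lay above every EV library, and its log2 fold change was 0.25 in *cat-1* RNAi (SE 0.0663, limma adjusted p = 0.733) and 0.17 in *cat-2* RNAi (limma adjusted p = 0.509). *nyn-1*, a relative of the endonuclease gene *rde-8*, averaged 36.9 ± 1.95 RPKM in *cat-2* RNAi and 32.7 ± 1.11 RPKM in EV (log2 fold change 0.17, limma adjusted p = 0.487). In *cat-1* RNAi *nyn-1* averaged 33.6 ± 1.53 RPKM (log2 fold change 0.04 against EV, and −0.13 against *cat-2* RNAi with a limma adjusted p of 0.729). *tsn-1*, the Tudor nuclease of the silencing complex, averaged 172.3 ± 5.49 RPKM in *cat-2* RNAi and 188.9 ± 5.48 RPKM in EV (log2 fold change −0.13, limma adjusted p = 0.494). *lin-15B*, a chromatin factor with the n744 allele in all libraries, averaged 26.4 ± 2.57 RPKM in *cat-1* RNAi and 22.6 ± 1.29 RPKM in EV (log2 fold change 0.22, limma adjusted p = 0.819). *ain-1*, a GW182 protein of the microRNA silencing complex, averaged 41.2 ± 6.17 RPKM in *cat-1* RNAi and 34.5 ± 1.02 RPKM in EV (log2 fold change 0.24, limma adjusted p = 0.819). *xrn-2*, a nuclear exonuclease, averaged 53.4 ± 2.38 RPKM in *cat-1* RNAi and 48.4 ± 2.53 RPKM in EV (log2 fold change 0.14, limma adjusted p = 0.819). In *cat-2* RNAi *xrn-2* averaged 48.7 ± 3.41 RPKM (log2 fold change 0.0061 against EV). Its log2 fold change in *cat-1* RNAi against *cat-2* RNAi was 0.13 (limma adjusted p = 0.751). *nyn-2*, a further relative of *rde-8*, averaged 70.7 ± 1.82 RPKM in *cat-2* RNAi and 66.4 ± 2.05 RPKM in EV (log2 fold change 0.09, limma adjusted p = 0.550). All means ± SD are over 4 libraries.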

How the data were processed

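RNA-seq was performed on 12 libraries of whole worms, 4 per group as the labels give them. Paired-end reads of poly(A) RNA were mapped by the authors to ce11 in CLC software, and RPKM per feature was deposited. The sources used here do not state whether strand was used or how multiply mapping reads were treated. The deposited table also holds the authors' group means and the p-values and FDR of their own comparisons, none of which were used. Whole reads and library totals were recovered from the steps of the RPKM values for 20423 of 20423 features above 0 (100%, within 0.001 reads).

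The 13161 genes that reached 0.5 RPKM in 4 or more libraries were tested on log2(RPKM + 0.5), which understates changes of low genes, with limma 3.58.1 (R 4.3.3, trend and robust) over all 12 libraries, 4 comparisons and Benjamini-Hochberg adjustment over all genes. The study's methods state the CLC software but not this test. Exact permutation tests, two-sided, were used for genes under the filter and for the RNAi targets. Intervals are 95%. Scripts were tested on simulated data. Annotation was from Ensembl release 115. Python 3.11.15 served for the rest, with pandas 2.3.3, scipy 1.17.1, numpy 2.4.6 and matplotlib 3.10.9.

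The members and lists were chosen with earlier results of these data known. Named with values in every library are members under an unadjusted p of 0.05, members under the filter, members with an allele or transgene and the highest of each role. Other pathway genes, apart from *prg-2*, are named mostly by their means. They are at most 4 per comparison, by smallest p among those under an unadjusted p of 0.05. Sample codes share a letter across the groups within a replicate number, but whether those samples were prepared together is not stated. Same-numbered libraries of different groups had deviations correlated at −0.0578 to 0.185 (12 pairs, median 0.0214). Libraries with other numbers had −0.239 to 0.177 (36 pairs, median −0.006). These correlations cannot decide how the samples were prepared. The main model left the replicate number out, and a replicate block was an alternative. Alternatives numbered 23, namely other pseudocounts, filters, scalings, voom, library weights, a replicate block, models of 2 groups, leaving out each library and, chosen after seeing the data, leaving out both *cat-2* RNAi libraries that stand apart.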

Additional observations from a re-analysis of the deposited data

Results flagged for a closer look

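In 8 of 135 groups of 4 libraries 1 library lay far from the other 3, where about 6.75 are expected at 1 in 20. Among the members, *rrf-3* in EV was 24.0 RPKM in replicate 2 and 23.2 to 23.3 RPKM in the others, and *mut-7*, which encodes a Mutator exonuclease, was 57.1 RPKM in *cat-2* RNAi replicate 2 and 54.8 to 55.1 RPKM in the others. The target *cat-2* in EV was 0.209 RPKM in replicate 3 and 0.116 to 0.121 RPKM in the others, a matter of a few reads. The remaining 5 were sums of marker genes. The summed germline markers in EV were 1982 RPKM in replicate 2 and 2073 to 2081 RPKM in the others, and the summed body muscle markers in EV 264.7 RPKM in replicate 2 and 147 to 159.5 RPKM in the others. The summed sperm markers in *cat-2* RNAi were 5.82 RPKM in replicate 1 and 2.27 to 2.86 RPKM in the others, and the summed intestine markers in *cat-2* RNAi 656.9 RPKM in replicate 1 and 732.9 to 746.9 RPKM in the others. The summed dopaminergic neuron markers in EV were 8.96 RPKM in replicate 1 and 10.8 to 11.1 RPKM in the others.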

How the results depend on the processing

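The count of members past the adjusted threshold stayed at 0 in each of the 91 alternative fits, with a lowest adjusted p of 0.302 (*alg-1*). With the replicate number as a block, 0 members passed in any comparison. The count of all genes in *cat-2* RNAi against EV was then 0 in place of 4, and it ranged from 0 to 9 over the alternatives. The counts of all genes in the other comparisons ranged from 0 to 2. Whether same-numbered libraries were prepared together is not stated in the sources used here. Members under an unadjusted p of 0.05 ranged from 0 to 4 in *cat-1* RNAi against EV (4 without *cat-1* RNAi replicate 3), 0 to 5 in *cat-2* RNAi against EV (5 with library weights), 0 to 4 in both against EV (0 without *cat-1* RNAi replicate 2) and 0 to 2 in *cat-1* RNAi against *cat-2* RNAi. Shares of all genes at that level are given above only for the test as reported, voom and the fit without both *cat-2* RNAi libraries. For the remaining fits these counts cannot be set against all genes. Of 1001 fold changes of 11 named members under the alternatives, 28 had the other sign, all of members within 1 SE of 0 in the test as reported. The median of the members in both against EV was −0.0026 with median-of-ratios scaling, against 0.0103. For the RNAi targets, leaving out 1 library gave differences of 0.316 to 0.714 RPKM for *cat-1* in *cat-1* RNAi against EV, 0.271 to 0.669 RPKM for *cat-1* in *cat-1* RNAi against *cat-2* RNAi, 0.768 to 1.16 RPKM for *cat-2* in *cat-2* RNAi against EV and −1.14 to −0.748 RPKM for *cat-2* in *cat-1* RNAi against *cat-2* RNAi, all with an adjusted p of at least 0.0857 in the exact test, since fewer arrangements of the libraries are left. Depth limits *alg-3* (124 reads in all) and *alg-4* (112), and poly(A) libraries hold no small RNAs.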

Other observations

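Over the 12 libraries the members did not vary as 1 block. Across 528 pairs of members Pearson's r had a median of 0.15, and −0.01 without *cat-2* RNAi replicate 2. The pair with the highest r was *sid-3* and *alg-1* (0.93, and 0.90 without that library), followed by *sid-5* and *alg-2* (0.91), *sid-3* and *dcr-1* (0.90) and *alg-1* and *alg-2* (0.88). At the other end lay *dcr-1* and *rde-8* (−0.85), *sid-3* and *rde-8* (−0.78), *rde-11* and *wago-1* (−0.76) and *sid-3* and *wago-1* (−0.74). The genes of each pair come from the same 12 libraries and share their depth and group, *alg-1* and *alg-2* can also share reads, and the pairs were picked for their values, so these are descriptions with no test.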
